A study of Mus musculus with 4 samples.

Results

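Homeobox and paired-box genes encode transcription factors that bind DNA through a homeodomain or a paired domain, and this account follows the Hox, Pax, Lhx, Dlx, Pou, Nkx, sine oculis (Six2 to Six6), Otx, Emx and Msx families in the dentate gyrus of the mouse hippocampus. Their probe sets were chosen by gene symbol alone: a probe set was a member if it carried a single symbol that began with 1 of these family names. The rule found 97 member probe sets for 79 symbols, out of 10833 probe sets with a single symbol for 8251 symbols. Of the 79 symbols, 75 were coding homeobox or paired-box genes. Pou2af1 encodes a coactivator of POU proteins that has no homeodomain, and Hoxa11os, Dlx6os2 and Dlx1as are noncoding transcripts from the Hoxa and Dlx loci. No Otx or Emx probe set with a single symbol was found, so those families were not analysed here.

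RNA was taken from the dentate gyrus of young male C57BL/6J mice that an experimenter had handled and that received nothing else. The 4 arrays belong to 1 group, handled controls, with RNA extracted 1, 2, 4 or 6 h after the last shock that parallel experimental mice received, and with 1 array at each hour. No mutation, transgene or drug was named for these mice, and arrays of shocked mice were not used. The sources used here do not say how many mice lie behind each array, so the spread between arrays mixes the hour, the animals and the array itself.

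Hox genes lie in 4 clusters, on mouse chromosomes 6 (Hoxa), 11 (Hoxb), 15 (Hoxc) and 2 (Hoxd), and their order along each cluster follows the position along the body axis at which they act in the embryo. In the nervous system they are known from hindbrain and spinal cord, and the forebrain, to which the hippocampus belongs, forms without them. Dlx genes and Lhx6 direct the interneurons that migrate from the ventral forebrain into cortex and hippocampus. Class III POU genes act in neural progenitors and neurons, Nkx2-2 and Nkx6-2 act in the oligodendrocyte lineage, Pax6 acts in neural progenitors, and many of the remaining members are known from organs outside the brain. Many developmental genes of these families start in DNA dense in CpG, the dinucleotide that can be methylated, and are held silent by Polycomb proteins in tissues that do not use them.

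RefSeq promoter windows, from 250 bases before to 50 after a gene's start on build GRCm38.p6, were matched by gene identifier for 57 of the 79 genes. Because under 80% of the genes had an entry, no comparison of CpG content over the families was made. 4 windows are shown because they set probe sets on either side of the background level beside their start sites. Pou6f1 and Msx1 had the brightest probe sets with an entry, and Hoxd8 and Hoxd13 come from 1 cluster, Hoxd8 with a probe set above background on every array and Hoxd13 with all 4 values far below background. CpG dinucleotides are in capitals, each sequence is written 5′ to 3′ on the gene's strand, and the positions are chr15:100599935-100600234 (minus strand) for Pou6f1, chr5:37824536-37824835 (minus strand) for Msx1, chr2:74704365-74704664 (plus strand) for Hoxd8 and chr2:74667975-74668274 (plus strand) for Hoxd13.
Pou6f1: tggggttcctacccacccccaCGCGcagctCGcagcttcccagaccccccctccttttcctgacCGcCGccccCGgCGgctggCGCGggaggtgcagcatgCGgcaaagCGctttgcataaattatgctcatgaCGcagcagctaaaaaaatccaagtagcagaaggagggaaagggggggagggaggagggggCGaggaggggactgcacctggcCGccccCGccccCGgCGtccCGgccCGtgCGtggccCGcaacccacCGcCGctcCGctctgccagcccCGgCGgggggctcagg
Msx1: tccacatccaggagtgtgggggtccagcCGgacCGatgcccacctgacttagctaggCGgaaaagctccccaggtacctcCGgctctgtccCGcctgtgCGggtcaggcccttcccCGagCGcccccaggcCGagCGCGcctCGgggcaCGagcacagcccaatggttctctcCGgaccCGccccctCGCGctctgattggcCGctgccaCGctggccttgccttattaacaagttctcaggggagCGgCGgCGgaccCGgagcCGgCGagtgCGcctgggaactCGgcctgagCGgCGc
Hoxd8: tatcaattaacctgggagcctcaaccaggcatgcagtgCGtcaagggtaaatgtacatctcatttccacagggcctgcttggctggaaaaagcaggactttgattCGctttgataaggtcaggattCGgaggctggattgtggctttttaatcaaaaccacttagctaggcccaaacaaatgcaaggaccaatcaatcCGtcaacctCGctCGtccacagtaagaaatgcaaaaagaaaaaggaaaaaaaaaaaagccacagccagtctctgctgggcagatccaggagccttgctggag
Hoxd13: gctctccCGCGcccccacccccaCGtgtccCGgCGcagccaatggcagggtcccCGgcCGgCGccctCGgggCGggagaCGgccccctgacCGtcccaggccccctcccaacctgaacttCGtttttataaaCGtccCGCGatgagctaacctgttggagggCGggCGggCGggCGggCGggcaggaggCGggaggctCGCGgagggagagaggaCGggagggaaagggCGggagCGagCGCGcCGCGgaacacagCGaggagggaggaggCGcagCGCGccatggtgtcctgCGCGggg
Pou6f1 held 26 CpG, Msx1 29, Hoxd8 6 and Hoxd13 37 in 300 bases. Over all 32851 RefSeq promoter windows the median was 7 CpG, and 94.6% held at least 1. Both the lowest and the highest of these 4 counts came from the Hoxd cluster, and the gene with the highest count was the one at background. The 4 windows were picked and do not stand for the families. For Pou6f1 and Hoxd8 the class also depended on the probe set read, as each had another probe set above background on no array. Among other members above background on no array, Hoxa9 and Lhx8 held 4 CpG each and Hoxa13 held 45. These windows describe the reference genome, and neither methylation nor protein binding was measured.

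A probe set was taken as above background on an array when its intensity reached the 40th percentile of all non-control probe sets on that array, which was 118.44, 119.64, 141 and 114.2 at 1, 2, 4 and 6 h. The deposited values hold no detection call, so this level is a convention. Intensity also depends on the probe sequences of each set, so a brighter probe set does not by itself mean more RNA. By this level 13 of the 97 member probe sets (13.4%) were above background on all 4 arrays, against 51.5% of all single-symbol probe sets. Another 39 (40.2%) were above on 1 to 3 arrays, against 21.5% of all, and 45 (46.4%) were above on none, against 27%. At the level of genes, 13 had a probe set above on every array and 31 had none above on any. In bulk RNA a low value cannot tell fewer cells expressing a gene from less of its RNA in each cell.

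The member probe sets had a median geometric mean intensity of 76.5, with the middle 50% of them between 46.0 and 138. All single-symbol probe sets had a median of 194, with the middle 50% between 63.7 and 591. A list of 45 genes known from other tissues, such as sperm protamines, milk caseins and lens crystallins, gave 55 probe sets for comparison. Of these, 9 (16.4%) were above on every array and their median was 59.4, both close to the members' values. The list also shows how much brightness can arise without a gene known from brain. Tnp1, a sperm nuclear protein, gave 796.2, 785.3, 639.9 and 878.4 at 1, 2, 4 and 6 h with 160533_r_at. Another Tnp1 probe set gave 17.6, 18.3, 7.1 and 7.7. Ctrb1, a pancreatic protease, gave 355.8, 712.9, 580.2 and 773.8 with 160421_r_at. The 95th percentile of the list was 400.57, 435.3, 511.25 and 353.46 at the 4 hours, and of the members only the Hoxa4 probe set 97747_r_at and the Pou6f1 probe set 160793_at exceeded it on every array.

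**Figure D1:**
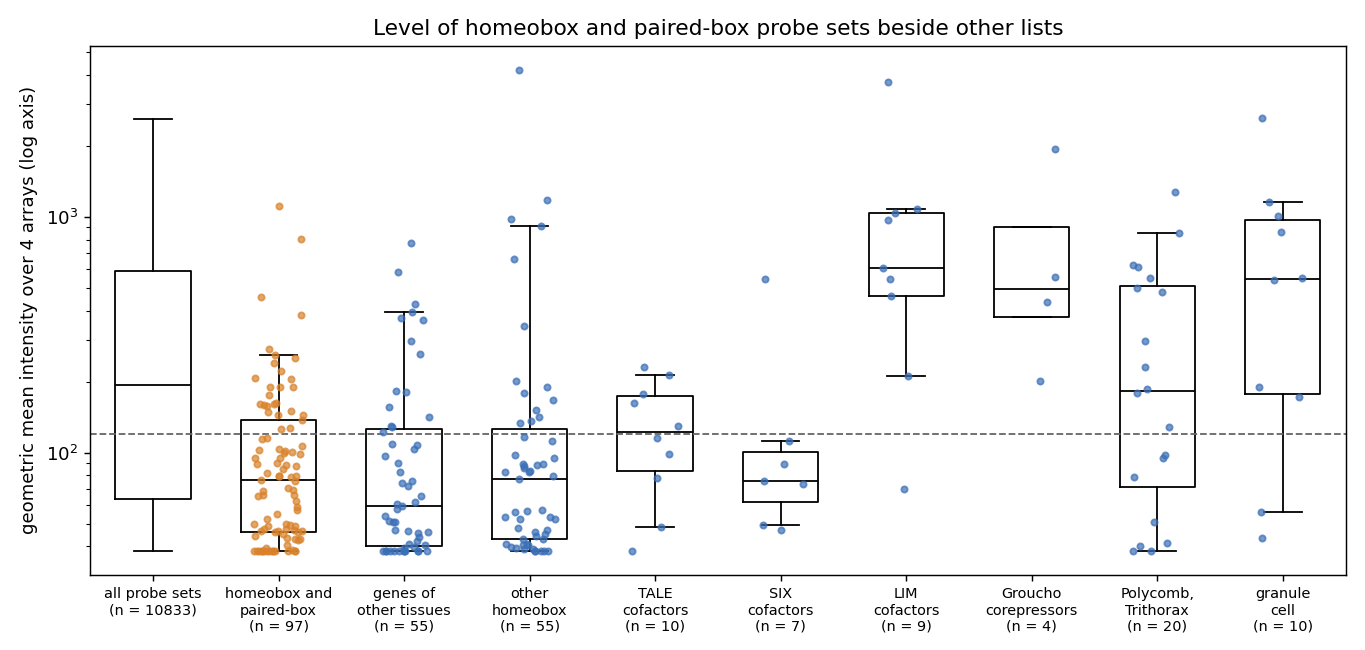
Geometric mean intensity over 4 arrays (log axis, values under 38.4 set to it) of each probe set in the member families and in the comparison lists; boxes span the middle 50% with the median as a line, whiskers run from the 5th to the 95th percentile, and points are probe sets (not drawn for all 10833). The dashed line marks 120.021, the level at which probe sets entered the trend test, and the members' median of 76.5 lies under it and beside those of other homeobox genes and genes of other tissues.

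The Hox genes, without their antisense transcripts, gave 38 probe sets for 31 genes. Of these, 5 were above background on every array, 15 on 1 to 3 arrays and 18 on none. The 5 belonged to Hoxa4, Hoxb6, Hoxb7, Hoxb8 and Hoxd8. All of them lie in paralog groups 1 to 8, where 26 probe sets had a median geometric mean of 92.4. The 12 probe sets of groups 9 to 13, the genes of the posterior trunk and limbs, had a median of 50.9, and none was above on every array. No test of position in the cluster was run.

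Hoxa4, an anterior Hox gene of the hindbrain and neck, gave 1310.5, 978.1, 1363.4 and 877.8 at 1, 2, 4 and 6 h with probe set 97747_r_at, a mean of 1132 ± 241 (SD, n = 4 arrays). All 4 values lay far above the background level, and the range between hours was 1.55-fold. The 3 other Hoxa4 probe sets did not share this level. Probe set 97745_at gave 50.6, 170.2, 81.2 and 148.8, and 162402_r_at gave 53.4, 150.3, 210.6 and 32.4, each above background on 2 arrays. Probe set 97746_f_at gave 23.6, 3.8, 4.5 and 60.9 and was above on none. The class of Hoxa4 thus depended on the probe set read.

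Hoxb8, a trunk gene also known from blood progenitors, gave 393.5, 406.3, 445.3 and 306.8 with 96418_r_at (388 ± 58.4, SD, n = 4). Its second probe set, 96417_s_at, gave 23.8, 17.2, 33.5 and 11, all under the floor of 38.4 that was set before logarithms were taken. The probe sets of Hoxb8 thus also fell on opposite sides of background. Hoxb6 gave 217.6, 313.9, 276.6 and 243.1 (263 ± 41.8), and its neighbour Hoxb7 gave 244.1, 199.1, 280.5 and 177.3 (225 ± 46.2). Both are trunk genes with 1 probe set each here. Hoxd8 gave 129.4, 263.2, 253.9 and 203 with 160460_at (212 ± 61.3), and 32.2, 46.5, 130.9 and 34.9 with 93221_at, which was above background on no array.

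Of the Hox probe sets above on some arrays, 6 more had a mean high enough to enter the trend test. Hoxc8 gave 120.2, 200.4, 293 and 97, and Hoxc5 gave 180.2, 132.6, 117.9 and 220.7. Hoxb1, which specifies a segment of the hindbrain, gave 141.8, 188.8, 146.6 and 108.9, and Hoxa2, which acts in the hindbrain and its neural crest, gave 114.7, 245.2, 127.2 and 101.1. Hoxa2 was thus above background at 2 h alone. Hoxb3 gave 82.4, 107.6, 222.4 and 130.1. Hoxa6 gave 72.6, 78.5, 435 and 99.6 with 102580_r_at, above at 4 h alone, while its other probe set 102579_f_at gave 13, 7, 6.8 and 9.9 and was not high at 4 h. At the other end, Hoxd13, a gene of digits and the genital tract, gave 11, 16.5, 20.8 and 12.2, and Hoxa13 gave 17.3, 76.6, 26.6 and 39.3.

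**Figure D2:**
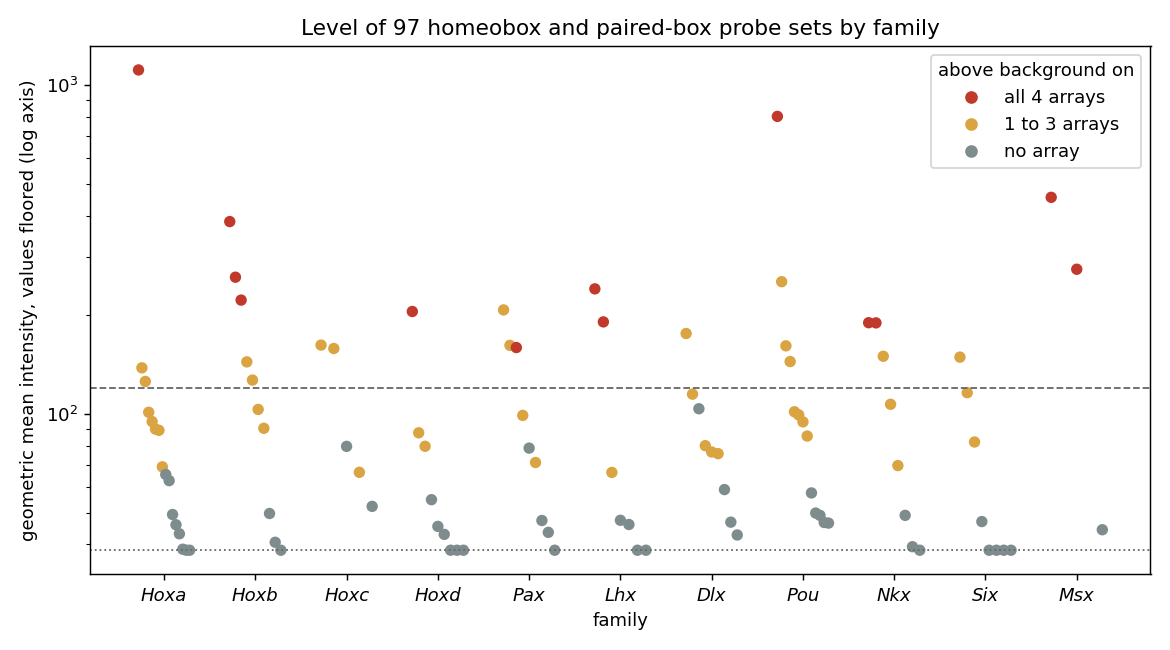
Geometric mean intensity (log axis) of the 97 member probe sets by family, coloured by the number of arrays on which each was above background; the dotted line is the floor of 38.4 and the dashed line is 120.021. Probe sets above background on all 4 arrays (13) occur in the Hoxa, Hoxb, Hoxd, Pax, Lhx, Pou, Nkx and Msx families, and none among Hoxc, Dlx or Six2 to Six6.

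Among the families of forebrain interneurons, Lhx6, which is needed for interneurons that make parvalbumin or somatostatin, gave 289, 141.2, 280 and 289.9 (250 ± 72.7). It was above background on every array, with 3 values within a few percent of each other and a low value at 2 h. Dlx1, a partner of Dlx2 in interneuron formation and survival, gave 130.1, 319.3, 93.8 and 243.1, above on 3 arrays. Dlx2 gave 61.3, 170.2, 69 and 47.5, above at 2 h alone. Of all 9 Dlx probe sets for 8 symbols, 5 were above on 1 to 3 arrays and 4 on none. The list of interneuron markers, which holds Lhx6, Dlx1 and Dlx2, was uneven as well, with 7 of 12 probe sets above on every array and 5 on 1 to 3 arrays. Of the enzymes that make GABA, Gad1 gave 3985, 4036, 3712.5 and 3491.9, and Gad2 gave 150.5, 121.7, 79.9 and 42.5, above on 2 arrays.

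Lhx1, known from Cajal-Retzius cells, Purkinje cells and kidney, gave 138.7, 157.8, 346.2 and 173.1 (204 ± 95.9), with 4 h the highest. Of the 7 Lhx probe sets, 4 were above on no array, among them Lhx8 of cholinergic neurons at 23.6, 25.3, 22.4 and 21.9. Lhx5 gave 17.4, 88.9, 17.6 and 16.1. Lhx3, which specifies motor neurons and the pituitary, gave 31.3, 66.4, 196.7 and 31.6, so that it was above background at 4 h alone.

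Pou6f1, a POU gene first known from brain, had the second brightest member probe set, 160793_at, at 713.4, 785.5, 985 and 755.6 (810 ± 120). Its other probe sets, 161390_r_at and 99891_at, gave 110.1, 118.8, 34.6 and 158.4 and 108.9, 27.3, 27.9 and 15.6. They were above on 1 array and on none. Of the 13 Pou probe sets this was the only one above on every array. The class III genes, which act in neural progenitors, upper-layer neurons and glia, were low or uneven. Pou3f1 gave 55.5, 217.2, 261.1 and 213, Pou3f2 gave 241.8, 47.4, 84.7 and 55, Pou3f3 gave 134.3, 94.5, 17.6 and 216.6, and Pou3f4 gave 83, 61.9, 41.7 and 50.6. Pou2f3, a gene of epidermis and tuft cells, gave 113.4, 246.7, 424.6 and 340.9, above background at all hours but 1 h. Pou2f2, a gene of B cells and neurons, gave 254, 233.3, 65.9 and 110.5. Pou5f1, the pluripotency gene, gave 46, 92.8, 175.4 and 129.3 with 161159_r_at and stayed under background on every array with its other probe set. Both Pou2af1 probe sets were above on none.

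Of the 3 Msx genes, targets of BMP signalling in the dorsal neural tube and neural crest, Msx1 gave 439.6, 423.6, 565.7 and 409.4 (460 ± 71.8). Msx3 gave 278.2, 265, 291.7 and 266.9 (275 ± 12.3), a range of 1.10-fold that was the smallest of any member that entered the trend test. Msx2 was above on no array. Nkx2-2, a gene of oligodendrocyte progenitors, gave 238.9, 223.4, 208.5 and 115.2 (196.5 ± 55.6), the last only just over the background level of 114.2. Nkx6-2, a gene of myelinating oligodendrocytes, gave 162.2, 180, 255.1 and 171.3 (192 ± 42.6). Nkx1-2, known from the posterior end of the early embryo, gave 80.6, 123.4, 184.7 and 272.4. Nkx2-9 of the ventral neural tube gave 148.9, 55.8, 53.1 and 295.1, with both middle hours under background. Of the other 4 Nkx probe sets, Nkx3-2 was above on 1 array, and Nkx2-3, Nkx2-5 and Nkx2-6 were above on none.

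Pax1, a gene of the vertebral precursors and thymus, was the only Pax gene above on every array, at 151.6, 153.3, 220.3 and 124.8 (162.5 ± 40.7). Pax4, known from the endocrine pancreas, gave 299.5, 294.7, 133.3 and 156. Its value at 4 h fell under that array's background level of 141. Pax5, known from B cells and the midbrain, gave 206.9, 62, 231.5 and 228.9 with 96993_at, and 25.4, 36.8, 27.1 and 18.5 with 102578_at. Pax6, the paired-box gene of neural progenitors and astrocytes of the adult dentate gyrus, gave 94.5, 117.1, 64.1 and 53.7 and was above on no array. Its 2 h value lay just under that array's background level of 119.64. Pax3, a neural crest gene, gave 183.6, 44.8, 287.5 and 40.3. Among Six2 to Six6, whose products work with Eya proteins, Six2 of nephron progenitors gave 343.8, 103.8, 122.8 and 111.4, above at 1 h alone. Six6 of the eye and pituitary gave 16.6, 15.4, 16.9 and 17.6. None of the 8 probe sets of these 5 genes was above on every array.

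**Figure D3:**
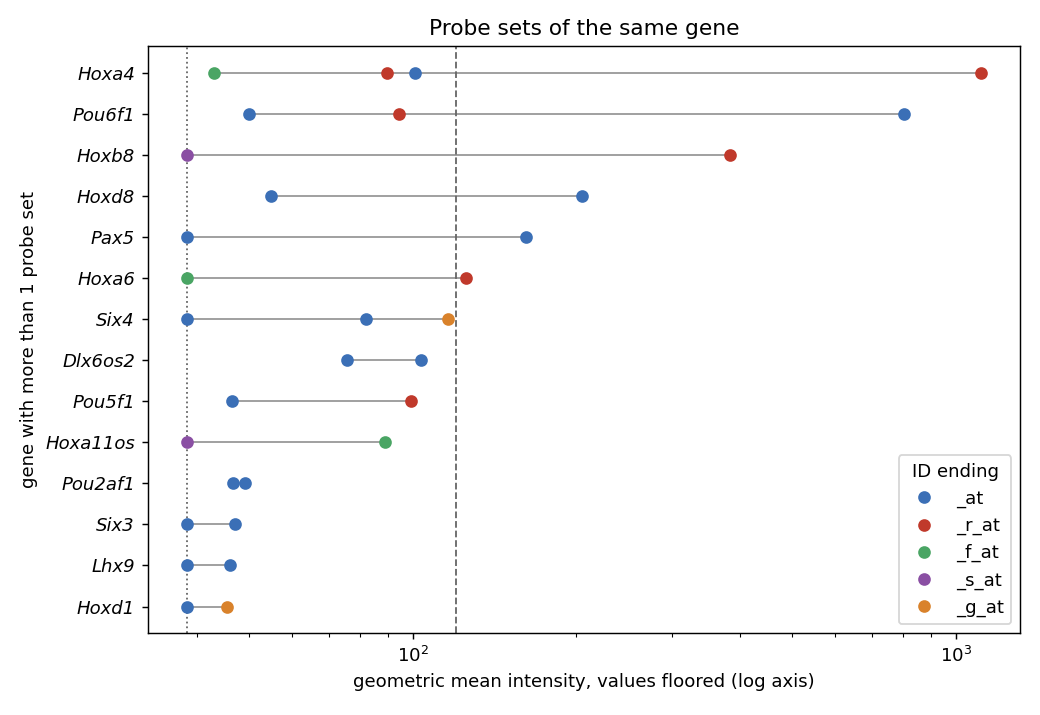
Geometric mean intensity (log axis, floor at 38.4) of each probe set for the 14 member symbols with more than 1 probe set, coloured by the ending of the probe set's identifier; the dashed line is 120.021. In Hoxa4, Pou6f1, Hoxb8, Hoxd8, Pax5 and Hoxa6 the probe sets of 1 gene lie on both sides of that line.

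There were 14 symbols with more than 1 probe set and 65 with only 1. For 6 genes (Hoxa4, Pou6f1, Hoxb8, Hoxd8, Pax5 and Hoxa6) a probe set entered the trend test while another of the same gene did not. The ending of an Affymetrix identifier tells how the probes were chosen: _r_at marks a set for which the selection rules were relaxed, _f_at a set shared by a sequence family, and _s_at a set shared by several transcripts. Of the 6 member probe sets that end in _r_at, 2 were above on every array, those of Hoxa4 and Hoxb8, and of the 82 with a plain _at ending, 11 were. Over all single-symbol probe sets the shares were 34.1% for _r_at and 53.9% for _at. Whether the relaxed rules have a part in the brightness of the Hoxa4 and Hoxb8 sets was not tested. The 5 probe sets of the 3 noncoding transcripts gave none above on every array, and no source used here says which strand their probes read.

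The trend over the hours of extraction was tested with limma on probe sets whose mean log2 intensity reached the 40th percentile of all such means, an intensity of 120.021. Of the members 27 entered, for 27 genes, which is 27.8% of the members against 60% of all single-symbol probe sets. The nearest on the inner side were Hoxa6, Hoxb3 and Hoxa2, with geometric means of 125, 127 and 138. On the outer side they were Six4 at 116 (93000_g_at: 83.6, 126.1, 154.1 and 110.9), Dlx5 at 115 (109.4, 168.9, 133.9 and 69.9) and Nkx2-9 at 107. No member had a called trend at an adjusted p under 0.05 (limma with Benjamini-Hochberg adjustment over 6500 probe sets), and 0% of all probe sets did. All 27 had an adjusted p of 0.999955. The smallest over all 6500 was 0.497. Without adjustment, 2 of 27 (7.41%), Pou2f3 and Nkx1-2, passed 0.05, against 2.08% of all. With 2 residual degrees of freedom the fit had little power, so the count of 0 does not show that levels were constant.

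The members' slopes were spread about 0: 15 of 27 were positive (55.6%, against 49.9% of all), with a median of 0.0039 log2 units per hour. The 3 highest belonged to Nkx1-2 at 0.34 ± 0.15 (SE), Pou3f1 at 0.31 ± 0.17 and Pou2f3 at 0.30 ± 0.12. Pou2f2 at -0.31 ± 0.17, Pax4 at -0.23 ± 0.12 and Six2 at -0.23 ± 0.17 had the lowest. The slope of Pou3f1 rests on the low 1 h array: fitted without it, it was -0.00704. That of Pou2f3 was 0.12 without the 1 h array and 0.60 without the 6 h array. Without the 6 h array Pou2f2, Pax4 and Six2 had slopes of -0.69, -0.42 and -0.41, so these sizes rest on single arrays. Values moved 1 way at every step in 2 members, upward in Nkx1-2 and downward in Nkx2-2 (7.41%, against 5.03% of all).

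**Figure D4:**
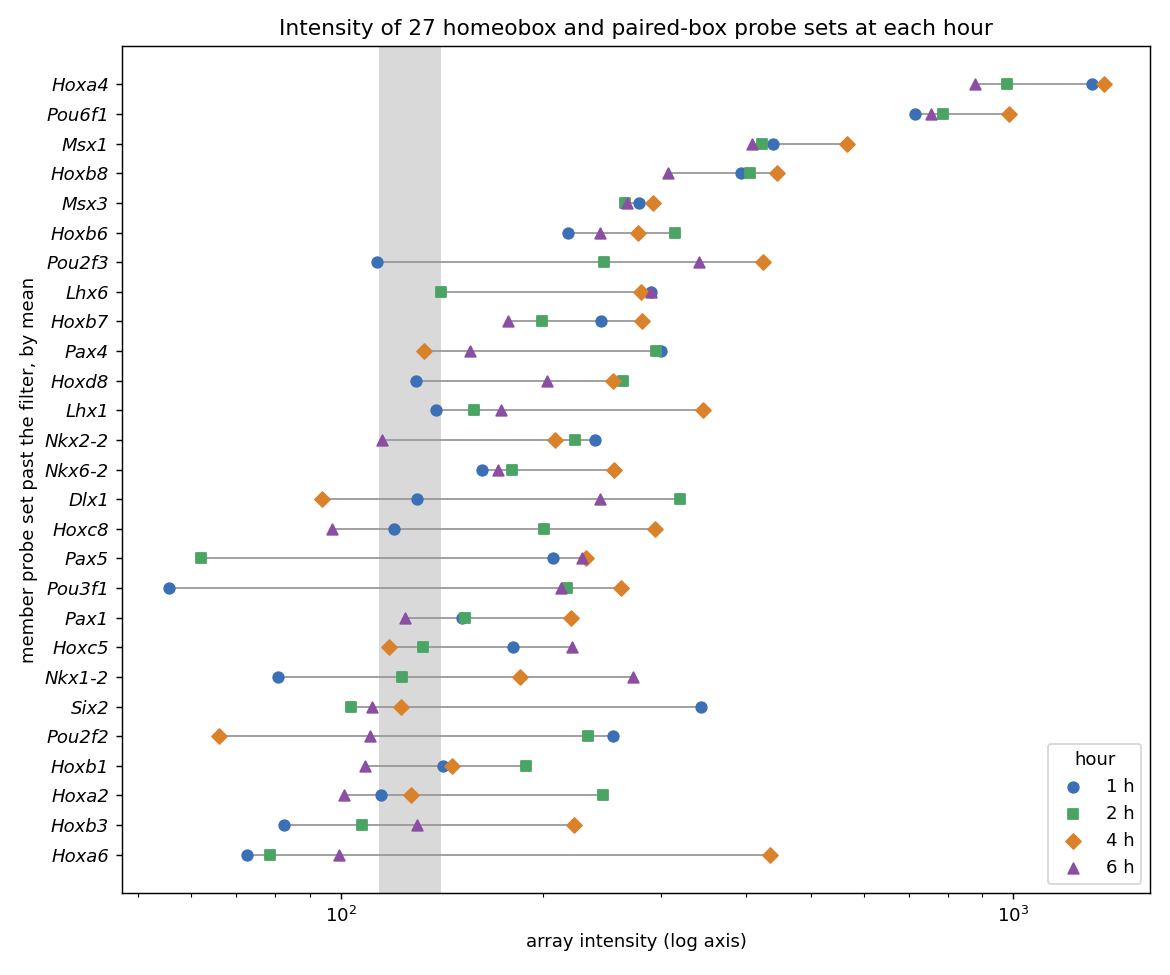
Intensity (log axis) at 1, 2, 4 and 6 h of the 27 member probe sets that entered the trend test, ordered by mean log2 intensity, with 1 array per hour and a line from the lowest to the highest hour; the grey band spans the background levels of the 4 arrays (114.2 to 141). Hoxa4, Pou6f1, Msx1 and Hoxb8 lie well to the right of the band at every hour, and most others touch or cross it at some hour.

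Differences between single hours were larger in the members than in probe sets in general. The highest hour was over 2-fold the lowest in 16 of 27 (59.3%), against 21.6% of all, and the median ratio of highest to lowest hour was 2.07 against 1.53. It was over 4-fold in 2 of 27 (7.41%), against 4.11% of all: Hoxa6 at 5.99-fold and Pou3f1 at 4.70-fold. None of the 16 had a value under the floor. Entry used the mean over the same arrays, so a single high hour could both bring a dim probe set in and widen its ratio. Six2, above background at 1 h alone, and Hoxa6, above at 4 h alone, are examples among the 16. The members were also dimmer, with a median geometric mean of 189 against 473, and ratios between hours were larger in dim probe sets throughout the array. Split at a mean of 300, a level chosen after the values were seen, the share over 2-fold was 16 of 23 (69.6%) against 47.4% of all under it, and 0 of 4 against 9.23% of all above it. Each hour has 1 array, so these ratios carry no replicate error.

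**Figure D5:**
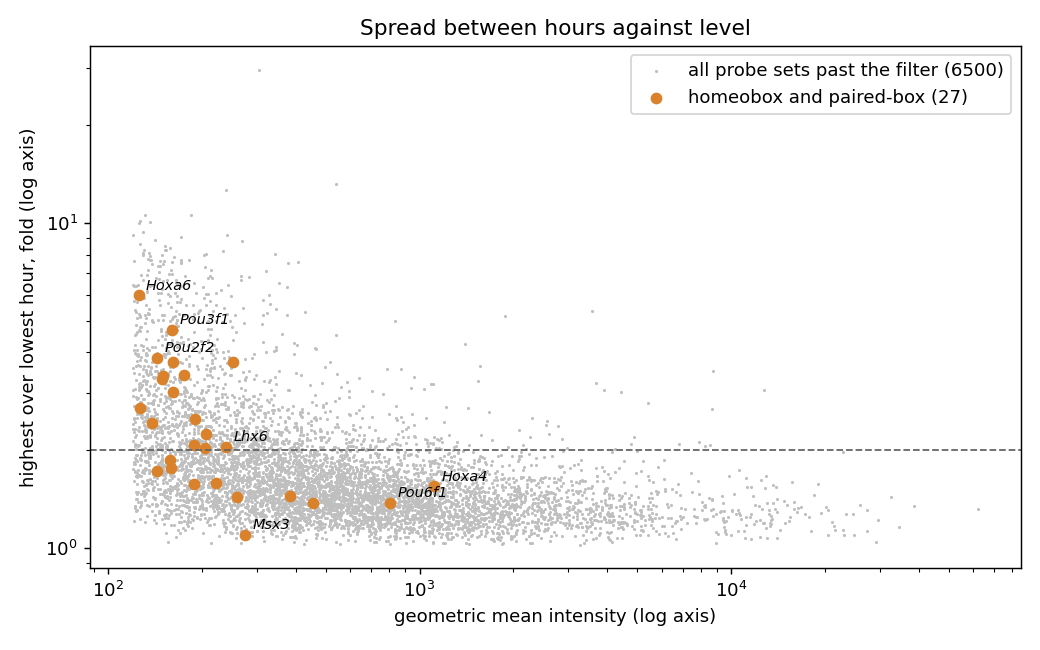
Ratio of the highest to the lowest hour (log axis) against geometric mean intensity (log axis) for the 6500 probe sets that entered the trend test (grey) and the 27 members among them (orange); the dashed line is 2-fold. Ratios spread upward toward the dim end in all probe sets, and the 16 members over the line all have a mean under 300.

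The 4 h array held the highest value of more members than any other array. The hour of the highest value was 1 h in 20 of the 97, 2 h in 20, 4 h in 43 and 6 h in 14. The 43 at 4 h (44.3%) stood against 35.3% of all single-symbol probe sets, and among those that entered the trend test it was 15 of 27 (55.6%) against 32.9%. Values under the floor, which have no reliable order, entered the first of these counts, but none of the 27 members in the second had one. Entry to the trend test used the mean over the same arrays, so a high 4 h value could itself bring a dim probe set in. Hoxa6, at 72.6, 78.5, 435 and 99.6, is such a case. The second count is therefore not independent of the 4 h array. The median of all probe sets was itself highest on that array, at 212.75 against 184.75 to 187.3 on the others, although the trimmed means were all 500.3. After scaling each array to a common median, 37 members (38.1%) were highest at 4 h, against 24.2% of all. The summed intensity of the members was 11034.5, 11006.9, 13806.1 and 10356.4 at the 4 hours.

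Some markers of other structures were also highest at 4 h, and others were not. Ttr, the transthyretin of the choroid plexus, gave 81.3, 233.6, 2408.1 and 191.2, and was far highest at 4 h. The 9 probe sets of the choroid plexus list, which holds Msx1, summed to 2658.6, 5435.6, 6453.9 and 3585. Ttr alone gave 2408.1 of that 4 h sum. Of the 9, 3 were above background on every array, and 5 were highest at 4 h, against 35.3% of all probe sets. The brightest of the choroid plexus list, Igf2, was highest at 2 h instead (1849.1, 4402.2, 2954.6 and 2520.8). Msx1, Lhx1, Lhx3, Hoxa6 and Nkx6-2 were among the 43 members highest on the 4 h array, and are named as examples. The part of other tissue in their 4 h values was not tested. The 8 probe sets of the pituitary and hypothalamus list summed to 1488.8, 1843.8, 1800.4 and 1658.7, highest at 2 h, and 2 of the 8 were highest at 4 h. In that list Prl, the hormone prolactin, gave 42.8, 35.6, 333.1 and 34.1, whereas Pomc, the precursor of corticotropin, gave 308.1, 350.5, 88.4 and 61.9. The list's brightest, Gh and Oxt, gave 481.9, 580.8, 565.3 and 523.6, and 159, 518, 292.9 and 420.4. Otx2, the homeobox gene of the choroid plexus, had no probe set in the analysis.

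The labelled tissue was checked on granule cell markers. Of their probe sets 7 of 10 (70%) were above background on every array, against 51.5% of all single-symbol probe sets. The calcium-binding protein gene Calb1 gave 2541.7, 3026.3, 2505.9 and 2453.3, and Dsp, a desmosome gene used as a granule cell marker, gave 947.5, 1362.3, 1089.4 and 1283. Prox1, the homeobox gene that specifies granule cells and lies outside the families studied here, gave only 184.2, 153.5, 182 and 249.1. A defining homeobox gene of the main cell type was thus above background on every array, but by less than 2-fold on most of them. Of the other lists that hold members, oligodendrocyte markers (with Nkx2-2) had 13 of 16 probe sets above on every array, and pituitary and hypothalamus markers (with Six6) 2 of 8. The astrocyte list had 9 of 9, microglia 7 of 9, endothelium 3 of 7, CA fields and mossy cells 5 of 7, and thalamus and habenula 5 of 11. The shares for thalamus and habenula (45.5%), endothelium (42.9%) and pituitary and hypothalamus (25%) lay under the 51.5% of all probe sets. That for CA fields and mossy cells (71.4%) was near that for granule cells, so these counts do not tell those cells apart. The arrays do not separate the cell types in which members are known to act.

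Genes for proteins that work with homeodomain factors, and for some relatives of such proteins, are given by list. No test between lists was run, and 51.5% of all probe sets were above background on every array. The LIM list holds cofactors that bind Lhx and LIM-only proteins, and also the LIM-only genes Lmo1, Lmo2 and Lmo4. It had 8 of 9 probe sets above background on every array, and its median was 604. The LIM-only gene Lmo4 gave 4363.4, 3023.7, 2956.1 and 4934.1, and the cofactor gene Ssbp2 gave 1141.7, 1238.2, 903.1 and 1066.4. Ldb1, the central adaptor of LIM protein complexes, gave 437.6, 409.5, 599.5 and 416.8. All 4 probe sets of the Groucho list were above on every array. Its full-length corepressors, Tle1, Tle3 and Tle4, are recruited by Pax, Nkx and Msx proteins, and Tle3 gave 452.7, 565.2, 617.6 and 591.2. The brightest was Tle5, a shorter member of the family outside that description, at 2258.2, 1699.9, 1834.4 and 2028.3.

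The list of TALE homeodomain genes holds Pbx, Meis and Pknox genes, whose proteins bind DNA together with Hox proteins, and also Tgif1 and Tgif2. It had 2 of 10 probe sets above on every array and a median of 122. Tgif2 gave 332.2, 449.3, 72.4 and 264.8, and Pknox1 gave 212.1, 301.3, 215.1 and 151.9. The 5 tested slopes of the TALE list were all negative, with none called. The Eya and Dach genes, whose products are cofactors of sine oculis proteins, had 1 of 7 probe sets above on every array. This was Eya1 94706_s_at, at 377.7, 525.6, 768.1 and 583.7. The other Eya1 probe set, 94705_at, gave 66.7, 33.7, 234.7 and 107.8 and was above on 1 array. Eya2 gave 100.4, 78.8, 121.7 and 161.7. The Polycomb and Trithorax list, whose proteins keep Hox genes off or on, had 10 of 20 above on every array. Its brightest were Kmt2a at 1361.6, 1365.2, 942.7 and 1485.3 and Bmi1 at 744.9, 876.2, 807.2 and 998.5. No probe set in these lists had a called trend. Positive slopes numbered 4 of 8 in the LIM list and 1 of 4 in the Groucho list. They numbered 1 of 1 in Eya and Dach genes and 6 of 12 in the Polycomb and Trithorax list.

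Homeobox genes of other families gave shares near those of the members. Of 55 probe sets for 48 such genes, 9 (16.4%) were above background on every array, and their median was 77.0. The brightest was Hopx, a homeodomain protein that does not bind DNA and is known from neural stem cells, at 4145.6, 4505.5, 3694.4 and 4448.2. Next was Zhx1 160848_at, at 1262.1, 1243.9, 869.2 and 1413.1, while Zhx1 161836_r_at gave 218.3, 123.6, 206.6 and 181.6. Genes that homeodomain factors are known to regulate, a list of 22 with 28 probe sets, had 12 above on every array and 6 positive slopes of 14 tested, with none called.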

How the data were processed

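Deposited values were 1 intensity per probe set and array, on a linear scale, for 12488 probe sets on 4 arrays. No source used here says how the authors made them (scanner, software, scaling). The mean without the extreme values was 500.3 on every array, and values were used as deposited. Left out were 66 controls, 1193 probe sets without a symbol and 396 with several symbols. Symbols come from the platform annotation, and all 79 members matched RefSeq by identifier. Intensities under 38.4, the 20th percentile, were set to it before log2. Slopes on the hour came from limma 3.58.1 under R 4.3.3 (lmFit and trended eBayes, with 2 residual degrees of freedom and 9.78 prior ones at the median), with Benjamini-Hochberg adjustment over 6500 probe sets, after a check on simulated data. No label states that arrays came from separate animals, so p-values measure only the spread between these arrays, which may be technical, and 4 arrays limit the precision. Alternatives covered scaling, filter, floor, background level, probe set choice and leaving out each array. The members and lists were chosen with earlier results of these data known. Values are named for members above background on all arrays, or over 2-fold between hours past the filter. They are also named for the 3 highest and lowest slopes and the 3 members nearest the filter on each side. Some, not all, of the other probe sets of named genes are given, as are the 2 brightest probe sets of the comparison lists described. Other members named were chosen after their values were seen.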

Additional observations from a re-analysis of the deposited data

Results flagged for a closer look

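In 4 of the 27 members that entered the trend test, 1 array stood apart from the other 3 on the log2 scale, by the gap to its nearest neighbour as a share of the whole range (Dixon's ratio). Pou3f1 was low at 1 h, with a gap of 0.869 of its range. Lhx6 was low at 2 h, with a gap of 0.952, and its other 3 values, 280 to 289.9, lay close together. Pax5 was low at 2 h, with a gap of 0.915. Six2 was high at 1 h, with a gap of 0.86. Chance gives such a gap in about 1 in 20 groups, and it occurred in 6% of all 6500 probe sets (390) and in 14.8% of the members. The array that stood apart was that of 1 h for Pou3f1 and Six2 and that of 2 h for Lhx6 and Pax5.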

How the results depend on the processing

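No member had a called trend under any of the scalings, filters, floors, probe set choices or leave-one-out fits that were run. Of all 6500 probe sets, 18 were called without the 1 h array, 3 without the 2 h array and 2 without the 6 h array. Without the 4 h array 0 were called. The number of members above background on all arrays, 13, was 13 after median or quantile scaling and 14 to 16 when an array was left out. It depended on the level chosen: it was 26 with background at the 30th percentile of each array, 6 at the 50th, and 2 at the 95th percentile of genes of other tissues. The share of all probe sets was not counted at these other levels. Members are thus set beside all at the main level only (13.4% against 51.5%). The count over 2-fold between hours, 16, was 53 of 97 members with no filter (54.6%, against 34.1% of all), 4 of 11 with a filter at the 50th percentile (36.4%, against 14.3%) and 7 of 15 with 1 probe set per gene (46.7%, against 15%). Those settings change how many probe sets enter. It was 11 to 15 with an array left out. Without the 1 h array the share was 39.3% against 15.7% of all, and without the 2 h array 50% against 15.5%. Without the 4 h array it was 48.3% against 11.4%, and without the 6 h array 53.6% against 15.9%. A ratio over fewer arrays cannot be larger for the same probe set, so these counts are not like for like with 16. The count of members highest at 4 h, 43, was 37 after median scaling and 36 after quantile normalization (37.1%, against 29.7% of all), alternatives chosen after the values were seen. Of 67 alternative slopes of the 6 named members, 66 kept their direction; that of Pou3f1 ran from -0.00704 without the 1 h array to 0.657 without the 6 h array. With 1 array left out, slopes ran from 0.12 to 0.60 in Pou2f3, 0.29 to 0.36 in Nkx1-2, -0.69 to -0.25 in Pou2f2, -0.42 to -0.20 in Pax4 and -0.41 to -0.22 in Six2. Pou2f2 and Six2 without the 1 h array, and Nkx1-2 without the 6 h array, fell under the filter and gave no slope. No paired analysis was possible because there is 1 group. Signal over background limits the 39 members above it on some arrays and the 45 above it on none.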

Other observations

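Probe sets shared by several genes were left out of the members because their signal cannot be given to 1 gene. A probe set that carries both Hoxb8 and Hoxb7 was above background on all 4 arrays, at 221.4, 368.3, 434.7 and 273.9 at 1, 2, 4 and 6 h. The Hoxb8 and Hoxb7 probe sets with a single symbol that were above background on every array, 96418_r_at and 92914_at, gave 306.8 to 445.3 and 177.3 to 280.5. Of the probe sets for Hoxd4 and Hoxd3 together, one gave 17, 25.9, 17.3 and 13.4, and the other gave 100.7, 105.1, 347 and 112.1. The latter was above background at 4 h alone, as Hoxa6 102580_r_at and Lhx3 were.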
